A study of Mus musculus with 27 samples.

Results

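The cytosolic sulfotransferases considered here were 9 mouse genes chosen by name, Sult1a1, Sult1b1, Sult1c2, Sult1d1, Sult1e1, Sult2a1, Sult2a2, Sult3a1 and Sult5a1, each read on its probe set of highest mean value. They were represented by 8 probe sets among 20100 genes or gene combinations with a probe set in the table, because Sult2a1 and Sult2a2 had no probe set that named only one of them. Liver RNA of 27 male C57BL/6J mice had been measured, with 1 array per mouse. The 7 INT-fed mice alternated by week between ad libitum feeding of the MF diet and 40% restriction relative to the intake of mice on AIN-93W. All were sacrificed in an MF week, so that their restricted week was not seen. The 6 CR-fed mice received AIN-93W-CR, a separate formulation, in daily portions at 30% calorie restriction. Restriction, formulation and feeding schedule therefore cannot be told apart in comparisons with the other diets. The 7 MF-fed mice ate AIN-93W-MF, a medium fat diet with 25% of energy from fat, and the 7 C-fed mice ate the control diet AIN-93W, both ad libitum. The diets began at 9 weeks of age and ended at 12 months. Every mouse was fasted for 4 hours, gavaged with 0.5% carboxymethyl cellulose and fasted for 6 hours more, so that no liver was taken in the fed state. Before this fast the CR-fed mice had a daily portion and the others ate ad libitum, so the time since the last meal may differ.

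Cytosolic sulfotransferases move a sulfate group from the donor PAPS (3'-phosphoadenosine-5'-phosphosulfate) onto small molecules, which makes them more soluble and usually less active. Their substrates are hormones, bile acids, catecholamines, phenols and drugs, and the liver is a main site of this reaction. In mouse liver several of these genes are known to differ between the sexes, with Sult2a1, Sult2a2 and Sult3a1 known for higher levels in females. Growth hormone, whose secretion pattern differs between the sexes, is known to set many such differences. Sult1b1, Sult1d1 and Sult1e1 are consecutive protein-coding genes on chromosome 5.

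Promoter sequences are shown for 3 members whose levels differed between diets, Sult3a1 (the only member higher in CR livers on a background of no signal in the other diets) and Sult1b1 and Sult5a1 (lower in CR livers). Each run covers the 250 bases before a transcript start that RefSeq gives on build GRCm38.p6, and a sequence was found for 7 of the 9 members. For Sult1b1 this start is the outer end of the gene, whereas for Sult3a1 and Sult5a1 it lies inside the span that RefSeq gives the gene, so other starts may exist upstream. Capitals mark a match to 1 of 4 motifs searched on both strands: a STAT5-type site (TTCNNNGAA), a core motif of nuclear receptors (AGGTCA), a longer HNF1-type site and a TATA box (TATAAA).
Sult3a1, chr10:33857472-33857721, plus strand: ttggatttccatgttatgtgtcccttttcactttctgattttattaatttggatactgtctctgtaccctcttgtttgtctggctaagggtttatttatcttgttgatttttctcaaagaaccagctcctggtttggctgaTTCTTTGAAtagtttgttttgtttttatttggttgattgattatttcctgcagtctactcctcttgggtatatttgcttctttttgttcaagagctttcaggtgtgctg
Sult1b1, chr5:87538196-87538445, minus strand: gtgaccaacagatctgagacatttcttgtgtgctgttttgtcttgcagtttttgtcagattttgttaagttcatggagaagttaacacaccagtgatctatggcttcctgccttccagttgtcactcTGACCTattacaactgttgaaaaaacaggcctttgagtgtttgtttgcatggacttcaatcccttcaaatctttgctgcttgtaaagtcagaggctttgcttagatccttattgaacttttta
Sult5a1, chr8:123158281-123158530, minus strand: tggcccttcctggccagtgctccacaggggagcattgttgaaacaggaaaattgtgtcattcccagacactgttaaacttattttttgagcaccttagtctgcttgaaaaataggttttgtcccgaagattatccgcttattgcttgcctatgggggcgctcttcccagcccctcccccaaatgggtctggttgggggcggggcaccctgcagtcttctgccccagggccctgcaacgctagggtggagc
In Sult3a1 the match was a STAT5-type site that began 109 bases before the start, a motif found in 7.02% of the 32851 promoters of the table. In this promoter of Sult1b1 it was the receptor motif on the other strand, 123 bases before the start, a motif in 14% of promoters. Sult1e1 held the same receptor motif, also on the other strand, 113 bases before its start. The windows of Sult1a1, Sult1c2, Sult1d1, Sult5a1 and the second start of Sult1b1 held none of the 4, of which the HNF1-type site was in 0.00913% and the TATA box in 12.4% of promoters. These matches describe letters in short windows.

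Of the 8 probe sets, 5 passed the intensity minimum of the study, an intensity above 20 on at least 5 arrays: Sult1a1, Sult1b1, Sult1c2, Sult1d1 and Sult5a1. All 5 lay above the minimum in all 27 livers, so none passed through a single diet. Their mean log2 intensities over the 27 livers were 11.01 for Sult1d1, 10.15 for Sult1a1, 8.11 for Sult1b1, 6.96 for Sult1c2 and 6.25 for Sult5a1, values that belong to different probes and give no order of RNA amounts. Sult3a1 was above the minimum in 4 livers, Sult1e1 in 1 and Sult2a1/Sult2a2 in 0 of 27. The defining hepatocyte markers (8 of 8) were present, and their mean level lay between 12.67 and 13.02 log2 units in every liver. The mean of 5 Kupffer cell markers was 7.84 to 8.36 in INT, 8.50 to 8.96 in CR, 7.94 to 8.61 in MF and 8.12 to 8.58 in C livers, highest in CR livers with some overlap. Of these markers, 1 of 5 (Clec4f) was called higher in CR minus C, against 8.47% of all genes tested. In INT minus CR 4 of 5 were called lower, against 6.73%. Other markers were also called in CR minus C: 2 of 4 for cholangiocytes and 1 of 5 for sinusoidal endothelial cells, all higher. Of the 8 hepatocyte markers 2 were higher and 1 lower, and no stellate cell or lymphocyte marker was called. The part of these marker differences in the results for CR livers was not tested, and in whole tissue fewer cells of a type and less RNA per cell cannot be told apart. The replicates 1 to 4 (16 arrays) and 5 to 7 (11 arrays) differed in the interquartile range of their values, at 3.63 ± 0.03 and 3.72 ± 0.03 log2 units (SD), a split that no label names, and the later set held only 2 CR livers.

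**Figure D1:**
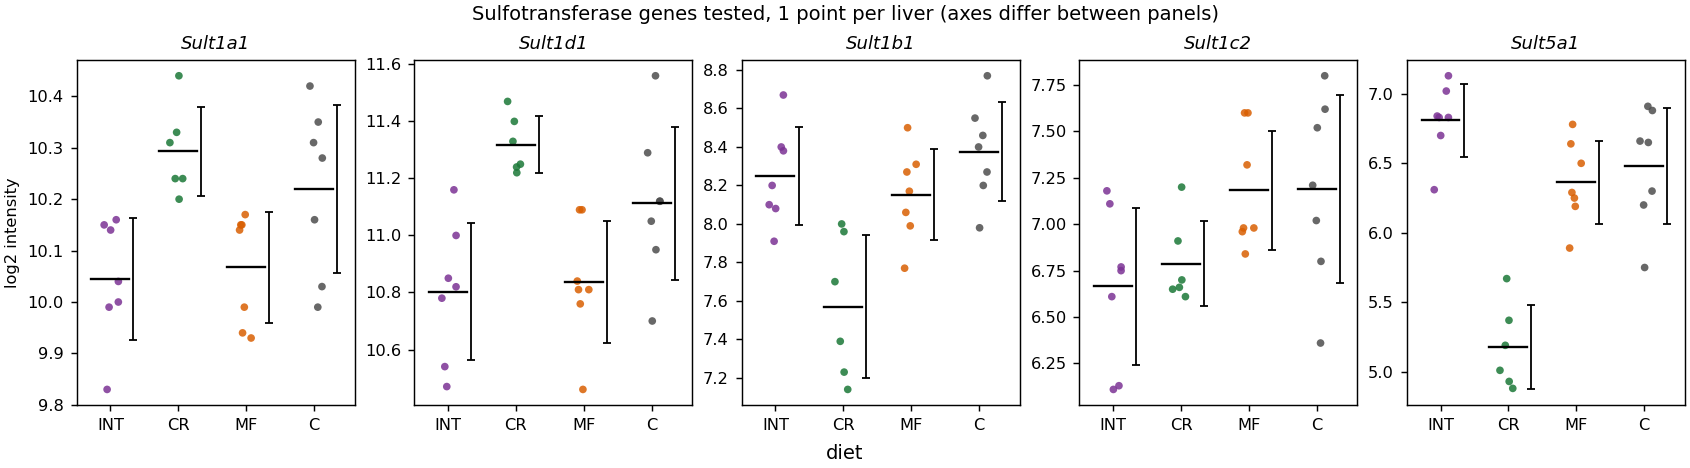
Log2 intensity of the 5 sulfotransferase genes that passed the intensity minimum, by diet, with 1 point per liver, a line at the mean and a bar of 1 SD beside it. Sult5a1 in the 6 CR livers (4.88 to 5.67) sat below all other livers, and Sult1d1 in CR livers (11.22 to 11.47) sat above all INT and MF livers.

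The comparison of calorie restriction with the control diet asked what long-term restriction did to these genes. Sult5a1 and Sult1b1 fell in CR livers, while Sult1a1, Sult1c2 and Sult1d1 were not called. Thus 2 of 5 tested members fell and 0 rose, against a background of 17.5% of the 14449 genes or combinations tested that were called (8.47% higher and 9.02% lower in CR). The median log2 fold change was -0.40 over the 5 members and 0.004 over all tested.

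Sult5a1, a family member whose substrates are little known, showed the largest difference among the tested members. In CR livers its lowest, median and highest log2 intensities were 4.88, 5.10 and 5.67. In C livers they were 5.75, 6.65 and 6.91. The highest CR liver therefore lay just below the lowest C liver, and the groups did not overlap. The log2 fold change was -1.30 (SE 0.17), which is 2.47-fold lower in CR, with an adjusted p of 3.79e-06 by limma over all genes.

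Sult1b1, which sulfates thyroid hormones and simple phenols, had 7.14, 7.55 and 8.00 log2 units in CR livers as lowest, median and highest. C livers had 7.98, 8.40 and 8.77. A single pair of values met at the edge, since 5 of the 6 CR livers lay below every C liver. The log2 fold change was -0.80 (SE 0.15, adjusted p 0.000275 by limma), or 1.75-fold lower in CR.

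Sult1d1, which acts on dopamine and other catecholamines in rodents, averaged 11.32 ± 0.10 in CR and 11.11 ± 0.27 in C livers (log2, SD, n = 6 and 7). The log2 fold change of 0.21 had a 95% interval from -0.03 to 0.45 (adjusted p 0.249 by limma). Sult1a1, the main phenol sulfotransferase, differed by 0.07 with an interval from -0.07 to 0.22. Sult1c2, also a phenol sulfotransferase, differed by -0.40, with an interval from -0.82 to 0.01 (adjusted p 0.184 by limma). C livers spread widely for Sult1c2, between 6.36 and 7.80, and C replicate 6 was the lowest of them. Without that liver the log2 fold change was -0.54 with an adjusted p of 0.0487 by limma, so that 1 control liver decided this call.

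Against the MF diet, the same 6 CR livers gave 4 called members of 5. Sult1a1 and Sult1d1 rose and Sult1b1 and Sult5a1 fell in CR, where 19.7% of all genes tested were called (8.56% higher and 11.1% lower in CR). The median log2 fold change of the members was -0.39, and that of all genes was -0.002. This comparison and the preceding one share the CR livers, so their values are set side by side and not counted as separate evidence.

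Sult1d1 had 11.22, 11.29 and 11.47 log2 units in CR livers as lowest, median and highest. MF livers had 10.46, 10.81 and 11.09. The groups did not overlap, and the log2 fold change was 0.48 (SE 0.12, adjusted p 0.00394 by limma). Its neighbour Sult1b1 moved the opposite way, with a log2 fold change of -0.59 (SE 0.15, adjusted p 0.00506 by limma). The MF livers of Sult1b1 spanned 7.77 to 8.50, against the CR range of 7.14 to 8.00, and 4 of the 6 CR livers lay below every MF liver.

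Sult1a1 was 10.20, 10.28 and 10.44 in CR livers and 9.93, 10.14 and 10.17 in MF livers, again as lowest, median and highest log2 intensity. The difference was small, at 0.23 (SE 0.07, adjusted p 0.0229 by limma), but every CR liver was above every MF liver. Without CR replicate 5, the liver with the highest value, it was 0.20 with an adjusted p of 0.0566 by limma. Sult5a1 spanned 5.89 to 6.78 in MF livers, all above the CR livers, with a log2 fold change of -1.19 (SE 0.17, adjusted p 1.22e-05 by limma). Sult1c2 was not called, at -0.39 with an interval from -0.81 to 0.02.

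**Figure D2:**
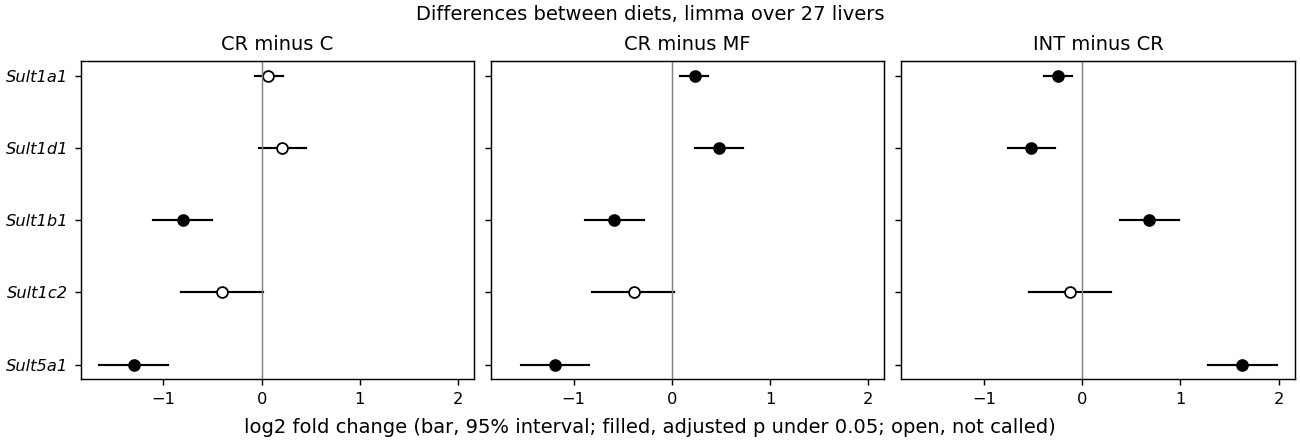
Log2 fold change of the 5 tested sulfotransferase genes between diets (horizontal axis), with 95% intervals from limma, for CR minus C, CR minus MF and INT minus CR. Filled points are called at an adjusted p under 0.05, and Sult5a1 was called in all 3 panels at -1.30, -1.19 and 1.63.

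The intermittent diet was compared with calorie restriction to see whether mice that were restricted in alternate weeks resembled those restricted all the time. Sult5a1 and Sult1b1 were higher and Sult1a1 and Sult1d1 lower in INT livers, so 4 of 5 members were called. Of all genes tested 15.1% were called, 8.39% higher and 6.73% lower in INT. The median log2 fold change was -0.12 over the members and -0.001 over all genes.

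Sult5a1 had 6.31, 6.83 and 7.13 log2 units in INT livers, against 4.88, 5.10 and 5.67 in CR livers. The log2 fold change of 1.63 (SE 0.17, adjusted p 1.29e-07 by limma) was a 3.10-fold higher level in INT. Sult1b1 was 7.91, 8.20 and 8.67 in INT livers, and the 2 highest CR livers (8.00 and 7.96) reached into this range. Its log2 fold change was 0.68 (SE 0.15, adjusted p 0.00173 by limma).

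Sult1d1 was 10.47, 10.82 and 11.16 in INT livers, all below the lowest CR liver at 11.22. The log2 fold change was -0.52 (SE 0.12, adjusted p 0.00269 by limma). Sult1a1 was 9.83, 10.04 and 10.16 in INT livers, likewise all below the lowest CR liver at 10.20, with a log2 fold change of -0.25 (SE 0.07, adjusted p 0.0156 by limma). Within replicates 1 to 4 the Sult1a1 difference was -0.19 with an adjusted p of 0.126 by limma, and within replicates 5 to 7 it was -0.34 with an adjusted p of 0.17. Sult1c2 averaged 6.67 ± 0.42 in INT and 6.79 ± 0.23 in CR livers and was not called (-0.12, interval -0.54 to 0.29).

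Within replicates 5 to 7, with 2 CR livers, Sult5a1 in INT minus CR was the only called difference of the tested members that passed the threshold, at 1.61 with an adjusted p of 0.0115 by limma. The others kept their direction there. Sult1b1 was at -0.56, -0.49 and 0.50 for CR minus C, CR minus MF and INT minus CR, with adjusted p values of 0.156, 0.249 and 0.233 by limma. Sult1d1 was at 0.29 for CR minus MF and -0.56 for INT minus CR (adjusted p 0.646 and 0.289 by limma), and Sult1a1 at 0.24 for CR minus MF (adjusted p 0.353). Sult5a1 was at -1.04 and -1.11 for CR minus C and CR minus MF, with adjusted p values of 0.0572 and 0.0538 by limma.

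Among the diets with ad libitum feeding at sacrifice, no member was called. The share of all genes called was 0% in INT minus C, in MF minus C and in INT minus MF. At an unadjusted p under 0.05 limma gave 3, 2 and 2 of the 5 members in these comparisons. Of all genes tested, 982, 506 and 1558 passed, which is 6.8%, 3.5% and 10.8%. The largest difference was in Sult1c2, at -0.53 (interval -0.92 to -0.13, adjusted p 0.628 by limma) between INT and C and -0.52 (interval -0.92 to -0.12, adjusted p 0.384 by limma) between INT and MF. Sult5a1 was 0.45 (interval 0.11 to 0.78, adjusted p 0.372 by limma) between INT and MF. Sult1d1 was -0.31 between INT and C and -0.27 between MF and C, with intervals of -0.54 to -0.08 and -0.50 to -0.04. In the same comparisons Sult1a1 was -0.18 and -0.15, with intervals of -0.31 to -0.04 and -0.29 to -0.01. These intervals leave out 0 before adjustment for the number of genes, and none of the differences passed after it.

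By mean level, the order of the diets from high to low was INT, C, MF, CR for Sult5a1 and C, INT, MF, CR for Sult1b1. It was CR, C, MF, INT for Sult1d1 and Sult1a1, and C, MF, CR, INT for Sult1c2. In Sult5a1 and Sult1b1 only the differences from CR livers were called by limma after adjustment. In Sult1d1 and Sult1a1 the CR livers differed from MF and INT livers, while C livers lay between and differed from neither neighbour by the test. The place of C for Sult1a1 differed between the earlier and later replicates. CR minus C was -0.07 within replicates 1 to 4 and 0.28 within replicates 5 to 7 (adjusted p 0.631 and 0.233 by limma).

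Sult3a1, an amine sulfotransferase of mice, was different in kind, since it had almost no signal outside CR livers. CR replicates 1 to 6 had log2 intensities of 6.06, 3.36, 4.58, 2.46, 5.79 and 4.48. INT livers ranged from 2.22 to 2.54, MF livers from 2.29 to 2.69 and C livers from 2.26 to 2.67. In linear units the highest CR liver reached 66.5 and the lowest 5.50, while the highest of the other 21 livers did not exceed 6.47. Thus 5 of 6 CR livers lay above every other liver, and CR replicate 4 lay among them.

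Because only 4 livers passed the minimum of 20, Sult3a1 did not enter the main comparisons. Fitted without the minimum, its log2 fold change was 2.00 (SE 0.33, adjusted p 0.000122 by limma) for CR minus C and 1.98 (SE 0.33, adjusted p 0.000126) for CR minus MF. For INT minus CR it was -2.10 (SE 0.33, adjusted p 7.02e-05 by limma). These standard errors pool the spread of all diets, which was unequal. The SD was 1.38 in CR but 0.10 in INT, 0.14 in MF and 0.17 in C livers, where values lay at background. The standard errors of Sult3a1 therefore understate the spread among the CR livers, and its p values come out too small. Without the minimum 11.9%, 13.1% and 9.9% of 20100 genes or combinations were called in these comparisons. The difference passed the threshold in all 7 other settings tried for each comparison and without each of the 27 livers in turn. All of these fits also pooled the spread over the diets, so they cannot show whether its inequality matters. Within replicates 1 to 4 the adjusted p values by limma were 0.0403 for CR minus C, 0.0384 for CR minus MF and 0.0364 for INT minus CR. Its size is not a fold of RNA, because values near the background do not fall further. The neighbouring gene Sult3a2 stayed below the minimum in all livers, at 2.00 to 2.28 in INT, 2.26 to 2.72 in CR, 2.16 to 2.22 in MF and 2.05 to 2.27 in C livers. The fit without the minimum called it as well. It was 0.25 for CR minus C (adjusted p 0.00652 by limma), 0.23 for CR minus MF (0.0115) and -0.25 for INT minus CR (0.00945). All Sult3a2 values lay at background, so no difference in expression is read from them.

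**Figure D3:**
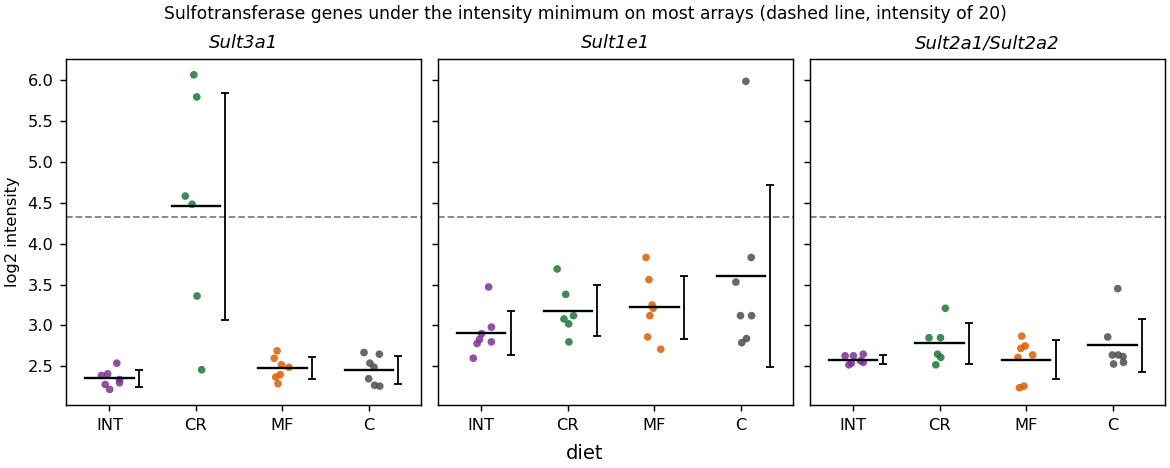
Log2 intensity of Sult3a1, Sult1e1 and the probe set shared by Sult2a1 and Sult2a2, by diet, with 1 point per liver, a line at the mean and a bar of 1 SD. The dashed line is the intensity of 20, which 4 CR livers passed for Sult3a1 and 1 C liver for Sult1e1.

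Sult1e1, the estrogen sulfotransferase, stayed below the minimum in 26 of 27 livers. It was 2.60 to 3.47 in INT, 2.80 to 3.69 in CR and 2.71 to 3.83 in MF livers. In C livers it was 2.79 to 3.83 except in replicate 6, which reached 5.98, or 63.1 in linear units. No comparison of Sult1e1 was called without the minimum, and the smallest unadjusted p by limma was 0.0334, for INT minus C. Sult2a1 and Sult2a2, which sulfate steroids and bile acids, share a probe set that lay between 2.24 and 3.45 in all livers, and the other probe set naming them lay between 2.39 and 2.83. These 2 genes therefore gave no level above background in any diet, and the array cannot tell them apart.

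Within the CR group Sult3a1, Sult1b1 and Sult5a1 ordered the mice nearly alike. For Sult3a1 the order from high to low was replicates 1, 5, 3, 6, 2 and 4. For Sult1b1 the same mice, in the same order, had 8.00, 7.96, 7.70, 7.39, 7.23 and 7.14. For Sult5a1 they had 5.67, 5.37, 5.01, 5.19, 4.93 and 4.88, which changes the place of 1 neighbouring pair. The CR mice with most Sult3a1 thus had most Sult1b1 and Sult5a1, although Sult3a1 was higher and the other 2 were lower in CR than in C livers. Sult1d1 did not follow this order, with 11.40, 11.24, 11.47, 11.33, 11.22 and 11.25 in the same mice. Sult1a1 followed it only in part, with 10.33, 10.44, 10.31, 10.24, 10.20 and 10.24.

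The same order held for Sult2a8, a bile acid sulfotransferase of mouse liver that was on a list of 14 other sulfotransferase genes. Its log2 intensities in CR replicates 1, 5, 3, 6, 2 and 4 were 10.14, 9.87, 9.40, 8.51, 7.93 and 7.45, and it ranged from 10.77 to 11.28 in C livers. The mean of 14 male-biased liver genes in these mice was 8.58, 8.73, 8.21, 8.06, 7.86 and 7.79. That of 16 female-biased genes was 7.82, 7.87, 7.91, 8.08, 8.06 and 8.07, with Cyp3a16 and A1bg included although they were under the intensity minimum on every array. Kupffer cell markers averaged 8.61, 8.81, 8.50, 8.64, 8.62 and 8.96 and the hepatocyte markers 12.97, 12.89, 13.02, 12.98, 12.94 and 12.98. The order mixes replicates 1 to 4 with replicates 5 and 6. It was noticed after the values were seen, all values come from the same 6 arrays, and what moves with it was not tested.

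**Figure D4:**
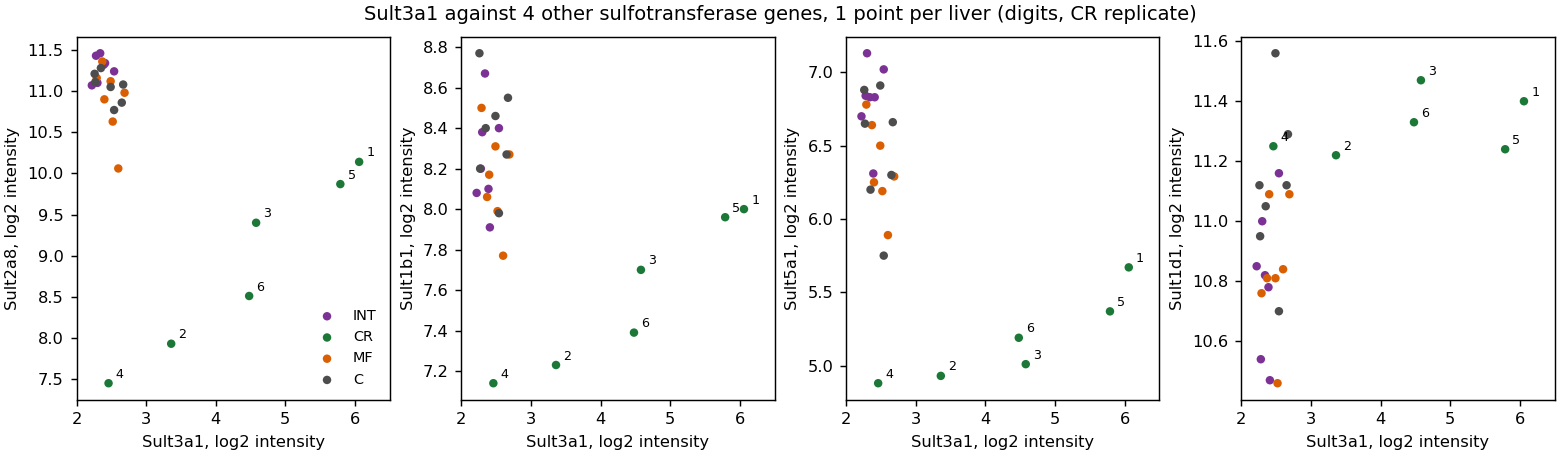
Log2 intensity of Sult3a1 (horizontal axis) against Sult2a8, Sult1b1, Sult5a1 and Sult1d1 (vertical axes), with 1 point per liver coloured by diet and the replicate number beside each CR liver. The CR livers ran from replicate 4 at 2.46 to replicate 1 at 6.06 for Sult3a1, while all other livers stayed at or below 2.69.

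Most of the other sulfotransferase genes had no probe set of their own or stayed under the intensity minimum. Of 14 listed, 10 had a probe set and 3 passed the minimum, Sult2a8 and the tyrosylprotein sulfotransferases Tpst1 and Tpst2, which act on secreted proteins in the Golgi. Sult2a8 fell in CR against C, with a log2 fold change of -2.17 (SE 0.29, adjusted p 5.91e-06 by limma), and was higher in INT than in CR at 2.40 (SE 0.29, adjusted p 1.36e-06). The other 2 were not called in these comparisons. In CR minus MF Sult2a8 was lower at -2.01 (SE 0.29, adjusted p 1.53e-05 by limma) and Tpst1 higher at 0.62 (SE 0.18, adjusted p 0.0129). Tpst2 was not called there, where 19.7% of all genes tested were. The median over the 3 was 0.06 for CR minus C.

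Genes that make the sulfate donor or supply sulfate moved in both directions. Of 16 tested, 3 were higher and 2 lower in CR than in C livers, with a median log2 fold change of -0.04, where 8.47% of all genes tested were higher and 9.02% lower. Papss2, one of the enzymes that make PAPS, rose by 0.28 (SE 0.06, adjusted p 0.00214 by limma). Csad, of taurine synthesis from cysteine, rose by 1.45 (SE 0.33, adjusted p 0.00238 by limma), and Sqor, of sulfide oxidation, rose by 0.28. Mpst, a sulfurtransferase, fell by 0.37 and Slc13a4, a sulfate transporter, fell by 0.38. In INT minus CR 2 were higher (Slc13a4 and Mpst) and 2 lower (Papss2 and Sqor), against 8.39% and 6.73% of all genes.

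Sulfatases, which remove sulfate groups, gave 0 higher and 3 lower of 9 tested in CR minus C, where 8.47% of all genes were higher and 9.02% lower. Arsg fell by 1.02 (SE 0.15, adjusted p 1.87e-05 by limma) and Arsa by 0.98 (SE 0.15, adjusted p 4.5e-05 by limma), both enzymes of the lysosome. Sulf2, which acts on heparan sulfate outside the cell, fell by 0.82 (SE 0.24). In INT minus CR, Arsa was higher by 1.00 and Arsg by 0.72. The list's median was -0.16 for CR minus C.

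Among 15 tested regulators known for drug and hormone conjugation, 2 were higher and 4 lower in CR than in C livers, with a median of -0.10, against the same shares of all genes (17.5% called in either direction). Cux2, a transcription factor known for higher levels in female liver, rose by 1.85 (SE 0.09, adjusted p 5.46e-14 by limma). Cux2 is also on the list of female-biased genes given below. The growth hormone receptor gene Ghr fell by 0.24 and Stat5a, a factor activated downstream of that receptor, fell by 0.45. Nr1h4, the bile acid receptor FXR, fell by 0.30 and Ppara, a fatty acid sensor, by 0.35. In INT minus CR 5 were higher and 1 lower, where 15.1% of all genes were called. Of the sex-biased lists, 13 of 14 male-biased genes fell and 0 rose in CR minus C (median -1.56), while 8 of 14 female-biased genes rose and 0 fell (median 1.74), lists whose movement in these livers was known when they were chosen. Sult3a1 stood on the side of the female-biased list, whereas Sult2a1 and Sult2a2, also known for higher levels in females, gave no signal in CR livers. That side is the one between diets only. Among the 6 CR livers, those with most Sult3a1 had the higher means of male-biased genes and the lower means of female-biased genes, as the values by mouse show.

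Liver fat can differ widely among mice fed ad libitum, and Cidec, a lipid droplet gene that rises with it, was used as a readout on the same arrays. In the 14 MF and C livers Cidec ranged from 6.19 to 10.78 in MF and from 7.35 to 10.26 in C livers. No member's slope on Cidec, fitted with diet as a term, was called, where 9.6% of 14448 genes were called. At an unadjusted p under 0.05 limma gave 2 of the 5, Sult1c2 and Sult5a1, where 3677 genes passed, 25.4% of all tested. Sult1c2 had a slope of 0.17 log2 units per log2 unit of Cidec (SE 0.06, adjusted p 0.0936 by limma). With the INT livers added (21 livers) it was 0.08 (SE 0.07), and with the replicate number as a block it turned to -0.03 (SE 0.10). Sult5a1 had a slope of -0.14 (SE 0.05, adjusted p 0.118 by limma), which the same block brought to -0.03 (SE 0.09). Sult1b1 had a slope of -0.07 (interval -0.15 to 0.02). Sult1d1 and Sult1a1 had slopes of -0.04 (interval -0.13 to 0.05) and 0.00 (interval -0.06 to 0.06). Outside the members, Sult2a8 was lower with more Cidec at -0.17 (SE 0.04, adjusted p 0.0165 by limma) and Tpst1 at -0.25 (SE 0.04, adjusted p 0.00155 by limma). Body weight and liver triglycerides were not analysed here.

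**Figure D5:**
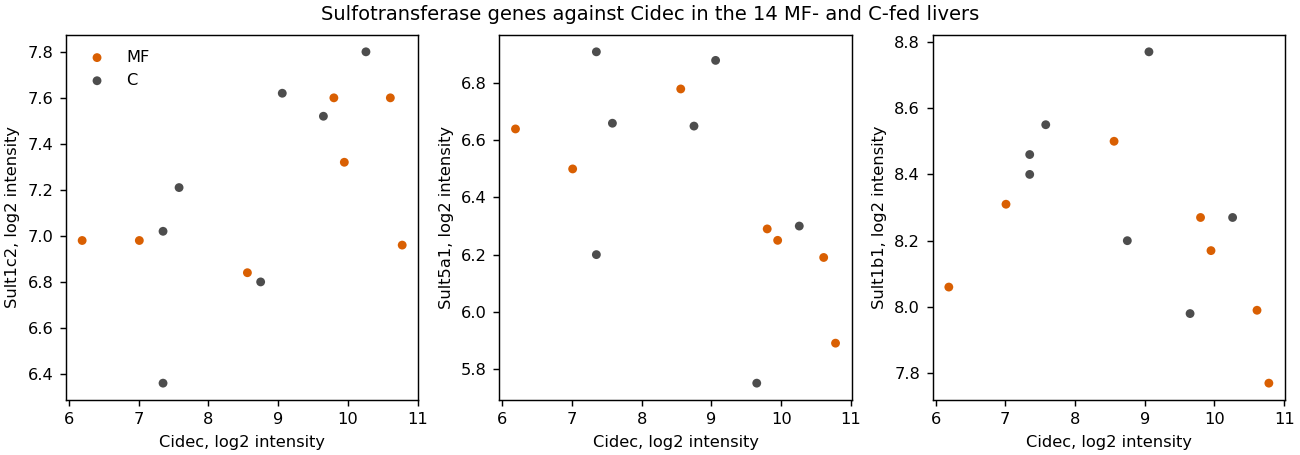
Log2 intensity of Sult1c2, Sult5a1 and Sult1b1 against that of Cidec in the 7 MF and 7 C livers, 1 point per liver. The fitted slopes were 0.17, -0.14 and -0.07 log2 units per unit of Cidec. None was called, and the slopes of Sult1c2 and Sult5a1 were both -0.03 with the replicate number as a block.

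Genes outside the sulfotransferase lists with the most similar pattern over the 27 livers were found by Pearson's r, given as a description of values that share arrays and diets. For Sult5a1 they were Susd4, Ephx2 and C6, with r of 0.93, 0.93 and 0.929 over all livers and 0.692, 0.767 and 0.766 over the 21 livers without CR. For Sult1b1 the nearest was Abat at 0.92 over 27 and 0.781 over 21 livers. Sult1d1 was nearest to Lpin1, at 0.893 and 0.862, and Sult1c2 to Serpinb8, at 0.848 and 0.87, so that for these 2 members the likeness was nearly as close or closer without the CR livers. Sult1a1 had no near match, with Chrna4 at 0.747 and 0.708.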

How the data were processed

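RNA of 27 livers was hybridised to Affymetrix whole-transcript mouse arrays, and the sample labels gave the groups. The authors applied robust multiarray average (RMA), which corrects background, equalises the distributions and summarises probes, so the deposited values are log2 intensities. The table has 35556 probe sets numbered as by the maker, whereas the methods speak of sets redefined by Entrez gene. Probe sets were named through the platform annotation, and RefSeq's gene table (GRCm38.p6) held 18790 of 18820 gene numbers. Each gene, and each combination of genes that share a probe set, kept its probe set of highest mean value (18821 genes and 1279 combinations). The plan had 1 probe set per gene; combinations were added after the table was seen, because Sult2a1 and Sult2a2 had no probe set of their own.

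Linear models with moderated variances were fitted to all 27 arrays with limma 3.58.1 (R 4.3.3), for features above an intensity of 20 on at least 5 arrays (14449 features), with Benjamini-Hochberg adjustment over all of them and a threshold of 0.05. Genes under this minimum were also fitted without it. The slope on Cidec used the 14 MF and C arrays with diet as a term. The code was tested on simulated data. Tables, motif searches and figures used Python 3.11.15, numpy 2.4.6, pandas 2.3.3, scipy 1.17.1 and matplotlib 3.10.9. Arrays carry no read depth; their number and the signal over background limit the precision. The closest pair of arrays shared 138 identical values, so none was a copy. The members, gene lists and settings were chosen with earlier results of these data known. Named genes were all members, the 3 most similar genes of each tested member, of which the closest are printed, and up to 5 called genes per list. Alternatives were other intensity minima, normalizations, variance models, probe set rules, blocks, subsets of arrays and each mouse left out. Promoters were those of RefSeq, searched over the 250 bases before the start.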

Additional observations from a re-analysis of the deposited data

Results flagged for a closer look

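In 2 of the 32 groups formed by 8 probe sets and 4 diets, 1 liver stood far from the rest of its group, and both were C replicate 6. The rule would flag about 1 in 20 groups of independent, normally spread values. Both flags share this liver, and both probe sets were under the intensity minimum in the other C livers. Whether chance gave these flags was therefore not tested. Sult1e1 was 5.98 log2 units in this liver, and the nearest C liver was at 3.83, a gap of 0.675 of the range of the group. The probe set shared by Sult2a1 and Sult2a2 was 3.45 in the same liver, with the nearest at 2.86 and a gap of 0.643 of the range, and both of these values are under the intensity of 20. The same liver had the highest Sult1d1 (11.56) and Sult5a1 (6.91) and the lowest Sult1c2 (6.36) and Sult1a1 (9.99) of the C livers. Its mean over the male-biased genes was 11.43 and over the female-biased genes 5.28, the highest and the lowest of all 27 livers. Its Kupffer cell marker mean, 8.37, and its interquartile range, 3.70 log2 units, lay within those of the other C livers. What sets this liver apart was not tested.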

How the results depend on the processing

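Over 38 results for single members and 1522 alternative values, 1479 kept their direction and their side of the threshold, 11 lost the call, 1 gained it (Sult1c2 for CR minus C, without C replicate 6) and 31 changed sign, all in differences that were not called. The settings for Sult3a1 without the intensity minimum, and the use of only probe sets that name 1 gene, were chosen after seeing the data. The number of members called changed by more than 1.5 times only within replicates 5 to 7, where 2 CR livers remained: to 0 for CR minus C, 0 for CR minus MF and 1 for INT minus CR, against 2, 4 and 4. Leaving out each mouse kept the called values of Sult5a1 between -1.43 and -1.23 for CR minus C and between 1.57 and 1.73 for INT minus CR.

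Differences that were not called changed sign as follows. Within replicates 1 to 4, Sult1a1 was -0.07 for CR minus C and 0.04 for INT minus MF, Sult1d1 was 0.15 for INT minus MF and Sult1c2 was 0.05 for INT minus CR. Within replicates 5 to 7, Sult1a1 was 0.04, Sult1c2 0.07 and Sult5a1 0.07 for MF minus C. With median centring, Sult1a1 was 0.01 for INT minus MF and its slope on Cidec -0.01, and with array weights Sult1c2 was 0.01 for MF minus C and Sult1a1 0.00 for INT minus MF. With 1 mouse left out, Sult1c2 ranged from -0.15 to 0.09 for MF minus C, Sult1a1 from -0.05 to 0.01 and Sult1d1 from -0.10 to 0.02 for INT minus MF, and the slope of Sult1a1 on Cidec from -0.01 to 0.02.

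With the replicate number as a replicate block, the numbers of members called were 2, 4 and 4 for CR minus C, CR minus MF and INT minus CR, as without it. In that replicate block fit the slopes on Cidec of Sult1a1, Sult1c2 and Sult5a1 were -0.01, -0.03 and -0.03, against 0.00, 0.17 and -0.14 without the block. With the INT livers added the slope of Sult1c2 was 0.08. Livers with the same replicate number had a mean correlation of deviations of 0.0686 over 39 pairs (range -0.244 to 0.301, 17 pairs over 0.1), against -0.0113 for other pairs, so the numbers were not taken as pairs. The cause of these changes was not tested, and fewer arrays enter the fits within replicates 1 to 4 and 5 to 7.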
